A study of Mus musculus with 6 samples.

Results

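The genes of the melanocyte pigment program were followed in RNA from the rib cages of mouse embryos. They are Tyr, Tyrp1, Dct, Pmel, Mlana, Mitf, Slc45a2, Oca2, Sox10 and Trpm1, 10 genes chosen by symbol among the 55487 gene IDs of the count table. All 10 were found, and 9 held enough counts to be tested, with Oca2 left out. The study compared 3 control embryos (E420, E434 and E435), which the labels call wild type, with 3 mutant embryos (E423, E433 and E440) of genotype Col2-cre;Foxc1-/-;Foxc2-/-, all at 16.5 days post coitum (dpc). In the mutants a Cre recombinase driven by the Col2 promoter deletes the transcription factor genes Foxc1 and Foxc2 in cartilage progenitors. The study describes the deletion as one in chondrocyte progenitors. Its reporter cross showed Cre activity in the perichondrium, the primary ossification center and the chondrocytes of the hind limb growth plate. Its discussion also cites activity of this driver in the sclerotome. Mutants came from Col2-cre+/-;Foxc1+/Δ;Foxc2+/Δ males and Foxc1 fl/fl;Foxc2 fl/fl females on a mixed C57B6 and Black Swiss background. By this cross, littermates called wild type would carry a floxed allele of each gene from the mother and may carry a deleted one. For its skeletal stains the study describes controls as negative for Cre. The study chose the rib cage because tissue other than skeleton can be dissected off it. Comparisons were between littermates, but which embryos shared a litter was not given. The labels do not say whether E434 differed from the other controls in any way.

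Melanocytes are pigment cells that arise from the neural crest and that, in the mouse trunk, settle in the skin and its hair follicles. They make melanin in melanosomes. Tyrosinase starts the synthesis from tyrosine, and the related enzymes TYRP1 and DCT act on later intermediates. PMEL builds the fibrils on which melanin is laid down, and transporters set the ion balance of the organelle. The transcription factor MITF drives many of these genes and is itself driven by SOX10, which is also made by Schwann cells and their precursors. On GRCm38 the enzyme genes lie at chr7:87424771-87493512 (Tyr), chr4:80834123-80851719 (Tyrp1) and chr14:118012790-118052244 (Dct), the structural genes at chr10:128704195-128720238 (Pmel) and chr19:29697824-29708634 (Mlana), and the transcription factor genes at chr6:97807052-98021349 (Mitf) and chr15:79154908-79165240 (Sox10). Slc45a2 lies at chr15:11000721-11029233, and Oca2 and Trpm1 lie on the same chromosome at chr7:56239760-56536518 and chr7:64153835-64269775. Krt5, a keratin gene of basal keratinocytes, was set beside the pigment genes as a marker of skin in each sample.

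MITF is known to bind an 11-base element called the M-box, AGTCATGTGCT, and shorter forms of it near the starts of pigment genes. Promoters of 300 bases, from 250 before to 50 after each start site, were available from RefSeq (GRCm38.p6) for 6 of the 10 genes, Tyr, Tyrp1, Dct, Mitf, Oca2 and Trpm1. They were searched on both strands. The 6 genes had 9 promoters between them. The M-box was found at Tyr and Tyrp1, in 2 of these 9 promoters, and in 7 of all 32851 promoters (0.0213%). The 11 letters searched were read from the Tyr promoter. The match at Tyr, and those of the shorter words inside it there, were therefore fixed in advance. Its inner part TCATGTG was found at 4 of the 6 genes (Tyr, Tyrp1, Dct and Trpm1), in 4 of the 9 promoters, and in 3.77% of all promoters. The core CATGTG, which lies inside both, was found at 5 of the 6 genes, with Oca2 added. It was in 6 of the 9 promoters and in 14.2% of all promoters. The separate E-box CACGTG was found at Trpm1 alone of the 6 genes, in 1 of the 9 promoters, and in 7.15% of all promoters. No promoter of Mitf held any of these words. The 30-base stretches around each TCATGTG are shown because these are the genes whose levels are compared here. The capitals mark TCATGTG, and each stretch is written on the strand that carries it.
Tyr, chr7:87493517-87493546, minus strand: agaaaaagttagTCATGTGctttgcagaag
Tyrp1, chr4:80834154-80834183, plus strand: gtggggagggagTCATGTGctgcctagtag
Dct, nearer site, chr14:118052380-118052409, minus strand: gtgcacttagggTCATGTGctaacaaagag
Dct, farther site, chr14:118052460-118052489, plus strand: tctttattgggcTCATGTGtcccagccaag
Trpm1, chr7:64153681-64153710, plus strand: cccaaatcctcaTCATGTGcccaccccaaa

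In these stretches the Tyr and Tyrp1 sites share AG before the capitals and CT after them, which completes the M-box. The nearer Dct site has CT after the capitals but not AG before them. The match began 22 bases before the RefSeq start of Tyr, 47 before that of Tyrp1, 151 and 232 before that of Dct, and 142 before that of Trpm1. The annotation used for the counts starts Tyrp1 farther upstream, at position 80834123, so that its stretch lies inside the gene there. A match is a description of the letters and not evidence of binding. The 250 bases before the starts of the tyrosinase gene and of Dct, whose counts are the highest among the enzymes, are given whole, with TCATGTG or its reverse complement CACATGA in capitals.
Tyr, chr7:87493513-87493762, minus strand: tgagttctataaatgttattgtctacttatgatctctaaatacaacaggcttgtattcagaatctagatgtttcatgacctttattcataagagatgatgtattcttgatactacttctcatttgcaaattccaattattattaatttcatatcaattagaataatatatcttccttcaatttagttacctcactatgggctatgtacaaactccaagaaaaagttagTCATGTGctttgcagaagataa
Dct, chr14:118052247-118052496, minus strand: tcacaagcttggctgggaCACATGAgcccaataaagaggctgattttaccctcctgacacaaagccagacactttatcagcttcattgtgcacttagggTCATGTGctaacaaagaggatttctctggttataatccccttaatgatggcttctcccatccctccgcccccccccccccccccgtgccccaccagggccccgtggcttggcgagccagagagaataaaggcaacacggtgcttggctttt

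The libraries were not alike apart from genotype. Each held between 37853988 and 47794799 gene counts, in which the ends of a pair were counted singly, or between 19387468 and 24443563 fragments. The targeted genes Foxc1 and Foxc2 were lower in all 3 mutants than in any control, with log2 fold changes of -2.34 ± 0.45 (SE) and -1.99 ± 0.39, at edgeR adjusted p-values of 0.235 and 0.239. Control libraries E420 and E435 were close to each other (SD of the log2 ratio over 16568 genes, 0.205), as were mutant libraries E423 and E440 (0.179), whereas the other pairs gave 0.524 to 1.43. Their counts still differed by more than counting error (chi-square per degree of freedom of 5.42 and 2.27, against 39.9 to 209 for the other pairs). Such a difference cannot show that the libraries of a pair are independent samples. Each was kept as a sample because the labels name separate embryos. Control E434 and mutant E433 stood apart from both pairs, and the counts of pigment, skin and mast cell genes past the limits are given with and without them. The summed level of 12 keratinocyte genes was 6701 and 7526 CPM (counts scaled to a common library size) in E420 and E435 but 38.9 CPM in E434. In the mutants it was 29080, 3727 and 29240 CPM in E423, E433 and E440.

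The enzymes of melanin synthesis were higher on average in mutants, but E433 stood below the controls E420 and E435 for Tyr and between them for Dct. Levels are CPM after TMM normalization in the order E420, E434 and E435 for controls and E423, E433 and E440 for mutants. Dct (dopachrome tautomerase), the most abundant of the enzymes, was at 7.02, 0 and 6.37 CPM in controls and 22.01, 6.82 and 20.3 CPM in mutants. Mutants E423 and E440 were far above every control, and the groups overlapped because E433 lay between E435 and E420. The fitted log2 fold change of Dct was 1.88 ± 1.30 (SE, n = 3 and 3, edgeR quasi-likelihood adjusted p = 0.644).

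Tyr, which encodes the rate-limiting enzyme tyrosinase, was at 2.04, 0 and 2.12 CPM in controls and 4.21, 1.07 and 3.27 CPM in mutants. Again E423 and E440 were the highest, and E433 was below controls E420 and E435. Its log2 fold change was 1.04 ± 1.14 (edgeR adjusted p = 0.775). Tyr and Dct were both at 0 in control E434, a library of 23967862 fragments. A count of 0 there allows a level of up to 0.125 CPM, counted in fragments at the floor of 3 fragments, so Dct was at least 57.7-fold lower in E434 than in E420 and at least 50.1-fold lower than in E435. For Tyr these bounds were 15.7-fold and 17.5-fold. Intervals and floors cover counting error only.

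Tyrp1, the gene of a later melanin enzyme, had a different pattern from Tyr and Dct. Its raw counts were 2, 0 and 0 in controls and 48, 8 and 49 in mutants, so every mutant lay above every control. In fragments this was 1 in E420 and 0 in the other controls, and 23, 3 and 24 in E423, E433 and E440. E433 was thus at the floor of 3 fragments, and its place above E420 rests on few reads. Pooled, 1 fragment in controls and 50 in mutants gave a depth-corrected ratio of 49.4 (exact 95% counting interval 8.47 to 1990). Most of the 50 came from the close pair E423 and E440. The log2 fold change fitted by edgeR, 5.48 ± 1.16, depends on the prior count, since the controls held 2 counts in all. Its unadjusted p was 0.00255 and its adjusted p 0.273. DESeq2 gave an adjusted p of 0.00144 for Tyrp1, and edgeR without mutant E433 gave 0.0181. The level in mutants was low all the same, at 1.16, 0.186 and 1.06 CPM.

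**Figure D1:**
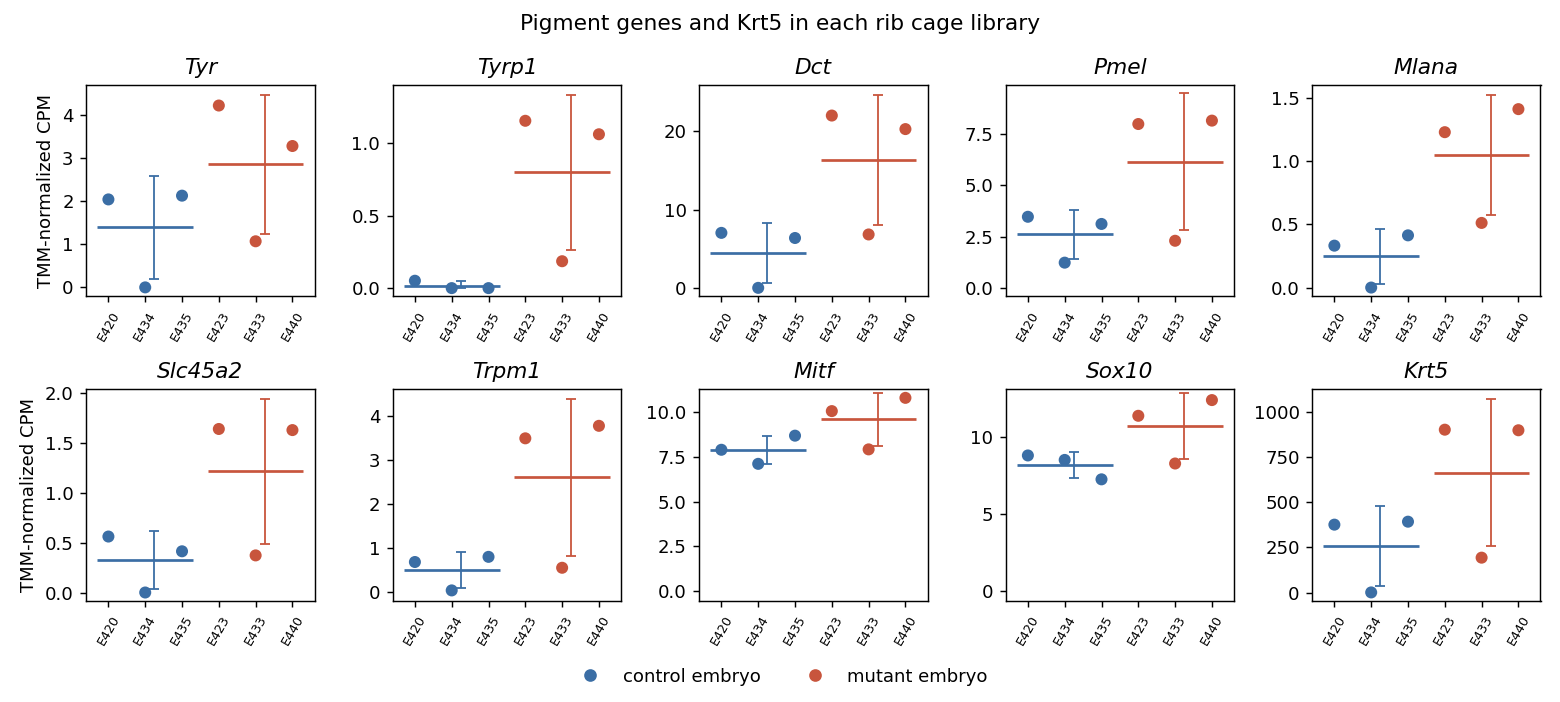
TMM-normalized CPM (y axes) of 9 pigment genes and of Krt5 in each library (x axes, by embryo), with controls in blue and mutants in red. Horizontal lines are group means and bars are SD (n = 3, lower bar stopped at 0). Tyr, Tyrp1, Dct, Pmel, Mlana, Slc45a2 and Trpm1 had E434 lowest (Tyrp1 together with E435) and E423 and E440 highest, whereas Mitf lay between 7.10 and 10.8 CPM and Sox10 between 7.26 and 12.4 CPM in all libraries.

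The structural genes of the melanosome followed Dct more than Tyrp1. Mlana, which encodes a melanosome membrane protein needed for PMEL processing, was at 0.331, 0 and 0.412 CPM in controls and 1.23, 0.510 and 1.41 CPM in mutants. All 3 mutants were above all 3 controls, although E433 was nearer to E435 than to the other mutants. Its log2 fold change was 2.07 ± 0.91 (edgeR adjusted p = 0.488). Pmel, the fibril gene, was at 3.46, 1.24 and 3.11 CPM in controls and 7.96, 2.30 and 8.13 CPM in mutants. The groups overlapped at E433, and the log2 fold change was 1.24 ± 0.57 (edgeR adjusted p = 0.506).

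Pmel was counted in E434, with 56 counts (24 fragments) beside 0 counts of Dct. Exons of Pmel share 105 bases (4.58% of its exon length) with Dgka and 34 bases (1.48%) with Cdk2, both on the opposite strand. Strand was not used in the counting, so reads of these genes in the shared bases cannot be told apart there. Their part in the E434 value was not tested.

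The transporter and channel genes were low, and of these Slc45a2 and Trpm1 were also highest in E423 and E440. Slc45a2, which encodes a melanosome transporter, was at 0.560, 0 and 0.412 CPM in controls and 1.64, 0.371 and 1.63 CPM in mutants. Mutant E433 lay below E420 and E435, and the log2 fold change was 1.91 ± 1.01 (edgeR adjusted p = 0.548). Trpm1, a cation channel gene that hosts a microRNA of the melanocyte lineage, was at 0.687, 0.0441 and 0.804 CPM in controls and 3.49, 0.557 and 3.77 CPM in mutants. The groups overlapped at E433, and the log2 fold change was 2.34 ± 0.97 (unadjusted p = 0.0495, edgeR adjusted p = 0.471). Oca2, another melanosome channel gene, had raw counts of 0, 0 and 2 in controls and 2, 0 and 0 in mutants. It was at or near 0 everywhere, and a difference between the groups was not detectable at this depth.

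The transcription factor genes did not share this pattern. Mitf was at 7.89, 7.10 and 8.68 CPM in controls and 10.1, 7.91 and 10.8 CPM in mutants. Sox10 was at 8.81, 8.52 and 7.26 CPM in controls and 11.4, 8.28 and 12.4 CPM in mutants. Both were present in E434 at the level of the other controls, in the library where Tyr, Tyrp1, Dct, Mlana and Slc45a2 had 0 counts. The groups overlapped at E433 for both genes. Log2 fold changes were 0.28 ± 0.16 for Mitf (edgeR adjusted p = 0.570) and 0.38 ± 0.18 for Sox10 (edgeR adjusted p = 0.514). Both genes are also expressed outside melanocytes, Sox10 in Schwann cells and Mitf in osteoclasts and mast cells.

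Per unit of length, the pigment genes ranked differently in E434 than elsewhere. In TPM, a measure of transcripts that divides by length, Dct was first in the 5 libraries other than E434, at 4.98 TPM in E420, 4.66 in E435, 15.02 in E423, 5.39 in E433 and 13.1 in E440. Sox10 was next in all 5, at 4.05 to 6.15 TPM, and neither order of neighbours was tested. In E434, Sox10 led at 4.54 TPM, followed by Mitf at 2.26 and Pmel at 0.74, and Trpm1 at 0.23 TPM rested on 1 fragment. The TPM of Tyr was less certain than its counts, since E423 and E440 had 82 and 74 fragments but 2.21 and 0.74 TPM. Tyrp1 did not pass 0.63 TPM and Oca2 did not pass 0.02 TPM in any library.

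As a group, the genes were higher in mutants, but none passed both limits of the comparison, which were an adjusted p under 0.1 and a change of 1 or more on the log2 scale. Of the 9 tested, 0 were past both limits by edgeR with all libraries, against 0.0338% of the 26596 genes tested that were past both on the higher side. At an unadjusted p under 0.05 there were 2, Tyrp1 and Trpm1, against 5.9% of all genes, and DESeq2 called 1, Tyrp1, against 1.62%. The fitted change was above 0 for all 9, with a median of 1.88 on the log2 scale and 0.01 for all genes tested. Groups did not overlap for 2 of the 9, Tyrp1 and Mlana, against 6.81% of all genes. Both rest on few fragments in E433, 3 of Tyrp1 and 9 of Mlana, where control E435 had 10 of Mlana. The 9 genes come from the same 6 libraries, so their shared direction is not 9 separate observations.

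The count of calls turned on E433. Without mutant E433, 3 of the 9 passed both limits, Tyrp1, Pmel and Trpm1 (edgeR adjusted p = 0.0181, 0.0825 and 0.0912), against 2.84% of all genes on the higher side. Without control E434, 0 passed (0.0308% of all genes did) and 3 had an unadjusted p under 0.05, against 6.47%. Without both, which left the close pairs E420 with E435 and E423 with E440, 6 passed both limits against 5.66% of all genes. These were Tyrp1, Dct, Pmel, Mlana, Slc45a2 and Trpm1, with log2 fold changes from 1.30 (Pmel) to 5.43 (Tyrp1). Tyr was 0.84 ± 0.18 there (adjusted p = 0.00106), Sox10 0.58 ± 0.11 (adjusted p = 0.000347) and Mitf 0.33 ± 0.11 (adjusted p = 0.0213), all under the limit on fold change. The libraries of each pair varied little between themselves, and the fit without E434 and E433 had correspondingly small errors. With each close pair summed as 1 sample, 0 of the 9 passed by edgeR, as did 0% of all genes, and Tyrp1 alone of the 9 had an unadjusted p under 0.05 (0.0152), against 1.54% of all genes.

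**Figure D2:**
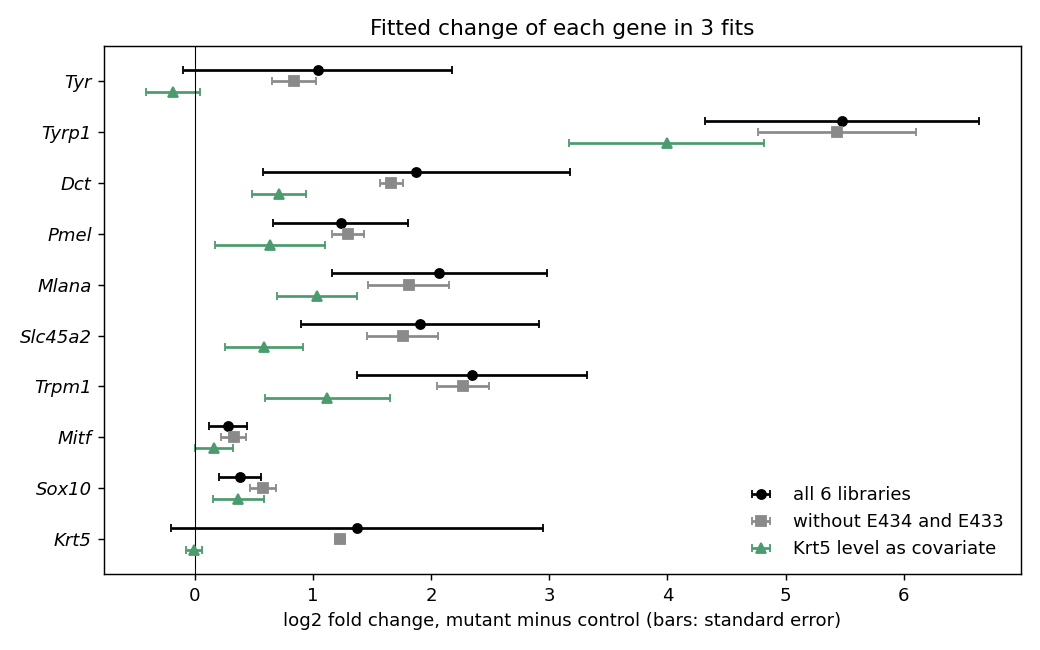
Log2 fold change of each gene, mutant minus control (x axis, bars are SE), with all 6 libraries (black), without E434 and E433 (grey) and with the Krt5 level as a covariate (green). Leaving out both libraries shortened the bars, for example from 1.30 to 0.0957 for Dct, and the covariate brought Tyr to -0.18 and Dct to 0.71.

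Krt5 moved with the pigment genes across the libraries. It was at 375.1, 0.640 and 391.5 CPM in controls and 899.8, 192.7 and 896.6 CPM in mutants. E434 was thus nearly without Krt5 and E423 and E440 were the highest, as for Dct. E433 lay below E420 and E435 for Krt5, where Dct lay between them. The log2 fold change of Krt5 was 1.37 ± 1.57 (edgeR adjusted p = 0.785). Without E434 and E433 it was 1.23 ± 0.04 (edgeR adjusted p = 2.6e-15). In whole-tissue RNA, more cells of a type and more RNA per cell cannot be told apart, and the part of skin in the change of the pigment genes was not tested.

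Relative to Krt5, most of the pigment genes varied less over the 5 libraries that held it. For every 1000 counts of Krt5, Dct had 18.7 and 16.3 counts in controls E420 and E435, and 24.5, 35.4 and 22.6 counts in mutants E423, E433 and E440. The highest library was 2.18-fold above the lowest in this ratio and 3.46-fold in CPM. Tyr had 5.43 and 5.42 counts per 1000 of Krt5 in the controls and 4.68, 5.54 and 3.65 in the mutants, a range of 1.52-fold where its CPM ranged 3.94-fold. For Pmel the ratio lay between 7.95 and 11.9 (1.5-fold, against 3.54-fold in CPM), and for Slc45a2 between 1.05 and 1.93 (1.83-fold, against 4.41-fold). Mlana lay between 0.882 and 2.65 (3-fold, against 4.26-fold). Dct, Pmel, Tyr, Slc45a2 and Mlana were each highest in E433 by this ratio, the library that was lowest of the mutants in CPM.

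Trpm1 and Tyrp1 were higher per Krt5 count in each mutant than in E420 and E435, as were Dct, Mlana and Slc45a2. Mlana had 0.882 and 1.05 counts per 1000 of Krt5 in these controls and 1.36, 2.65 and 1.57 in mutants. Slc45a2 had 1.49 and 1.05 in these controls and 1.82, 1.93 and 1.81 in mutants. For Tyr and Pmel the groups overlapped by this ratio. Trpm1 had 1.83 and 2.05 counts per 1000 of Krt5 in these controls and 3.88, 2.89 and 4.21 in mutants. Tyrp1 had 0.136 and 0 in the controls and 1.28, 0.963 and 1.18 in mutants, which is a narrow range among mutants whose CPM differed by far more. Mitf and Sox10 went the other way. Their CPM ranged 1.37-fold and 1.71-fold over these libraries, and their ratios to Krt5 ranged 3.68-fold and 3.4-fold, highest in E433 at 41.1 and 43.0. These ratios are a description of 5 libraries, without a test. The share of all genes that are higher per Krt5 count in each mutant than in E420 and E435 was not counted. The separation is therefore not read as particular to the pigment genes.

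In E434 the ratio said little about the pigment genes. The library held 29 counts of Krt5, and at the ratios of the other libraries these would go with 0.472 to 1.03 counts of Dct and 0.106 to 0.161 counts of Tyr. The counts of 0 found for both were therefore not distinguishable from the other libraries' ratios. Pmel had 56 counts there where 0.231 to 0.346 would go with Krt5, Mitf had 322 and Sox10 had 386.

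**Figure D3:**
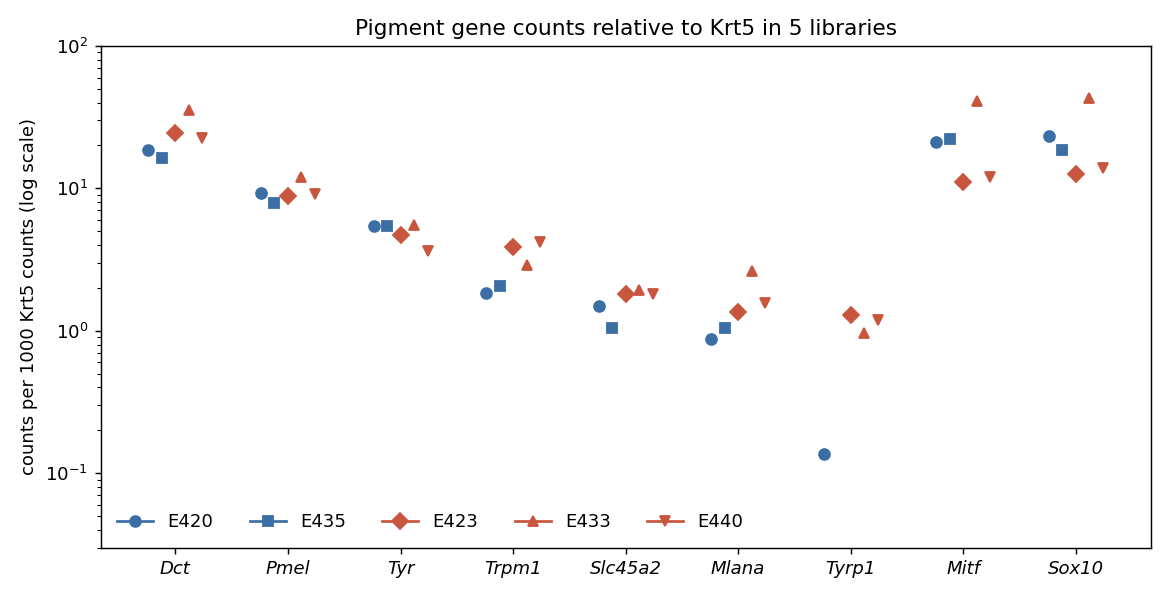
Counts of each pigment gene per 1000 Krt5 counts (y axis, log scale) in control libraries E420 and E435 (blue) and mutant libraries E423, E433 and E440 (red). Tyr kept to a range of 3.65 to 5.54 in all 5, Tyrp1 was at 0.136 in E420 and is not drawn for E435 where it was 0, and E434 is left out because it held 29 Krt5 counts.

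With the Krt5 level of each library as a covariate, a choice made after seeing the data, the fitted changes were smaller. Of the 9 genes, 0 passed both limits by edgeR, against 0.105% of all genes, and the median log2 fold change was 0.64. Tyr turned to -0.18 ± 0.23 (adjusted p = 0.807). Dct was at 0.71 ± 0.23 (adjusted p = 0.342), Trpm1 at 1.12 ± 0.53 (adjusted p = 0.488) and Tyrp1 at 3.995 ± 0.825 (adjusted p = 0.187). At an unadjusted p under 0.05 there were 3 of the 9 in this fit, Tyrp1, Dct and Mlana, against 6.3% of all genes on the higher side. Sox10 was close to its value without the covariate, at 0.37 ± 0.22 (adjusted p = 0.568).

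Set against Dct instead of Krt5, Tyr was lower and Tyrp1 higher in each mutant than in E420 and E435, whereas the groups overlapped for Slc45a2 and Mlana. Fragments were used here, since both ends of a fragment add to the counts. Tyr had 27.1 fragments per 100 of Dct in E420 (exact 95% counting interval 18.4 to 39.1) and 34.9 in E435 (24.9 to 48.2). In mutants it had 18.3 in E423 (14.3 to 23.2), 16.3 in E433 (10.1 to 25.3) and 16.1 in E440 (12.4 to 20.6). Tyr was thus lower relative to Dct in each mutant than in E420 and E435, with intervals that overlap for some pairs. Tyrp1 had 0.714 per 100 of Dct in E420 (0.018 to 4.05), 0 in E435 (0 to 2.51), 5.12 in E423 (3.21 to 7.78), 2.04 in E433 (0.416 to 6.08) and 5.21 in E440 (3.3 to 7.84). For E433 the interval held the value of E420 and overlapped the interval of E435. Slc45a2 lay between 5.44 and 7.59 and Mlana between 4.29 and 6.71 per 100 of Dct. Trpm1 was at 10 and 10.7 in E420 and E435, and mutants lay both above (14.7 and 19.3) and below (6.80). Pmel was at 45 in E420 and 44.97 in E435 and between 33.3 and 39.3 in mutants. E434 had no Dct fragment and gives no ratio, so this is a description of 2 controls and 3 mutants with no test. The share of all genes that separate these libraries by a ratio to Dct was not counted.

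**Figure D4:**
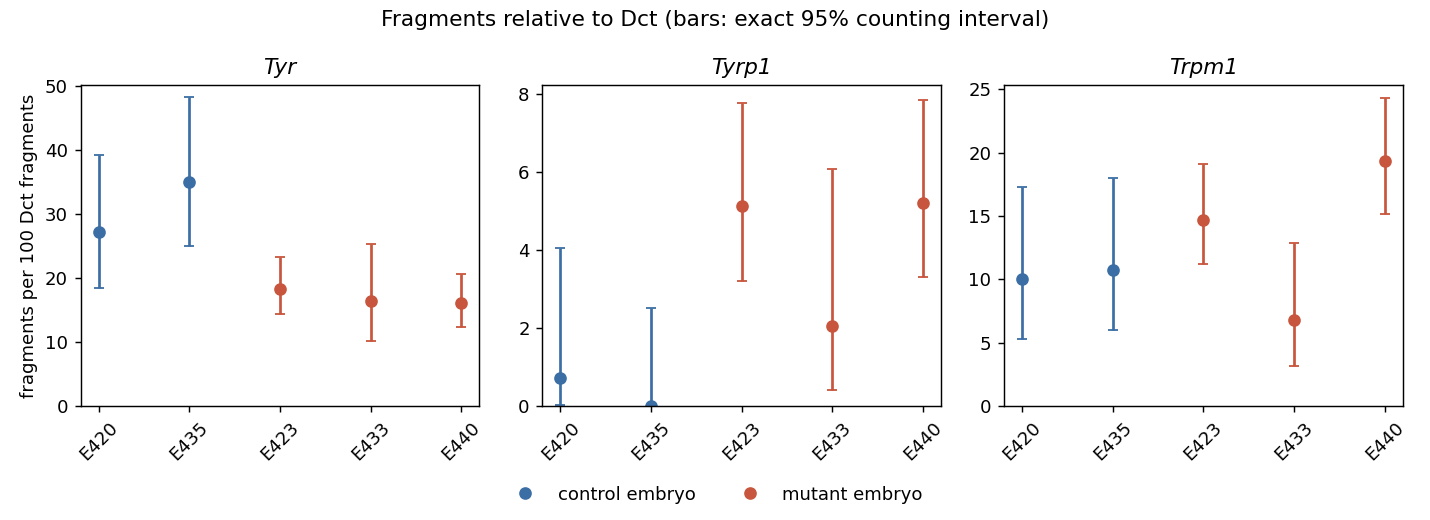
Fragments of Tyr, Tyrp1 and Trpm1 per 100 Dct fragments (y axes) in control (blue) and mutant (red) libraries, with exact 95% counting intervals. Tyr was at 27.1 and 34.9 in controls and 16.1 to 18.3 in mutants, Tyrp1 at 0.714 or 0 in controls and 2.04 to 5.21 in mutants, and Trpm1 at 10 and 10.7 in controls and 6.80 to 19.3 in mutants.

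The wider set of pigment genes did not rise as a whole. It held 41 matched genes for receptors, melanosome transport, melanosome assembly and transcription, all of which were tested, and Asip was not analysed here. By edgeR 0 passed both limits, 5 were higher and 1 lower at an unadjusted p under 0.05 (5.9% and 4.7% of all genes), namely Irf4, Kit, Kitl, Tspan10 and Lyst higher and Gpnmb lower, and the median log2 fold change was 0.10. DESeq2 called 2, Irf4 higher and Gpnmb lower, against 1.62% and 0.557% of all genes. Of the 41 genes, 4 were higher (Irf4, Kit, Kitl and Mc1r) and 1 was lower (Gpnmb) without overlap between groups, where 6.81% and 8.21% of all genes were. The list contains many genes of vesicle transport that are expressed in most tissues, such as Ap3d1, its most abundant at 107.1 ± 11.3 CPM (SD, n = 3) in controls and 101.8 ± 5.77 CPM in mutants.

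Among the receptors and their ligands, Mc1r was most like the pigment enzymes. This melanocortin receptor gene was at 0.636, 0 and 0.577 CPM in controls and 1.95, 0.719 and 1.65 CPM in mutants, without overlap (log2 fold change 1.83 ± 0.95, edgeR adjusted p = 0.539). Of its exon length, 17.9% overlaps a gene on the opposite strand. Kit, the stem cell factor receptor of melanoblasts and also of mast cells, was at 17.9, 10.7 and 17.9 CPM in controls and 28.8, 21.7 and 29.7 CPM in mutants, again without overlap (0.78 ± 0.23, edgeR adjusted p = 0.389). Its ligand gene Kitl was higher by 0.36 ± 0.11 (edgeR adjusted p = 0.389), with every mutant above every control. Ednrb, the endothelin receptor gene of neural crest cells, was at -0.23 ± 0.12 (edgeR adjusted p = 0.539), and its ligand gene Edn3 was at 0.02 ± 0.10 (edgeR adjusted p = 0.959).

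The other genes with large changes in this set were not alike in their library pattern. Irf4, a transcription factor gene of pigment cells and lymphocytes, was at 1.17, 0.838 and 1.05 CPM in controls and 2.31, 2.62 and 2.45 CPM in mutants (1.27 ± 0.19, edgeR adjusted p = 0.152). Here E433 was the highest mutant. Gpnmb, a PMEL relative abundant in osteoclasts and macrophages, was at 12.7, 11.5 and 12.4 CPM in controls and 3.61, 1.42 and 3.75 CPM in mutants, the reverse direction (-2.06 ± 0.36, edgeR adjusted p = 0.201). The summed level of 8 osteoclast genes was likewise lower in mutants, at 120.2 to 297.9 CPM against 599.2 to 622.7 CPM in controls.

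Mreg, which acts in melanosome transfer, was at 9.44, 2.03 and 7.71 CPM in controls and 24.9, 5.15 and 24.8 CPM in mutants (1.52 ± 0.74, edgeR adjusted p = 0.521). Tfap2a, a factor of both skin and neural crest, was at 0.0883 CPM in E434 and 25.1 CPM in E423 (1.06 ± 1.28, edgeR adjusted p = 0.796). Mcoln3 was at 1.04 ± 0.47 (edgeR adjusted p = 0.494). Slc24a5, a melanosome exchanger gene, was at 0.66 ± 0.28 (edgeR adjusted p = 0.472), but 39.5% of its exon length overlaps Myef2 on the other strand. Gpr143, a melanosome receptor gene, was at 0.21 ± 0.51 (edgeR adjusted p = 0.909), the MITF relative Tfec at -0.46 ± 0.27 (edgeR adjusted p = 0.583) and Snai2 at -0.35 ± 0.18 (edgeR adjusted p = 0.535).

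Markers of other cells that could accompany the pigment genes were summed in each library. The 8 hair follicle genes came to 62.6, 7.24 and 62.9 CPM in controls and 203.1, 36.0 and 205.5 CPM in mutants, with E434 lowest and E423 and E440 highest as for Dct, and with E433 below E420 and E435. All 12 keratinocyte and all 8 hair follicle genes had a fitted change above 0, with medians of 1.13 and 1.84, and 0 of either list passed both limits by edgeR, as did 0.0338% of all genes on the higher side. At an unadjusted p under 0.05 there were 0 and 2, the latter being Lhx2 and Sostdc1, against 5.9% of all genes, and DESeq2 called 0 and 1, Sostdc1, against 1.62%. Without E434 and E433, 6 of 12 and 6 of 8 passed both limits, against 5.66% of all genes. Krt10, a keratin of differentiated epidermis, was the most abundant keratinocyte gene (2.36 ± 1.66, adjusted p = 0.647), with Krt1 at 2.73 ± 1.87 and Cdh3 at 0.20 ± 0.33 the ends of the list. Krt17 led the follicle list (1.88 ± 1.36, adjusted p = 0.658), with Lhx2 at 2.97 ± 0.97 and Msx2 at 0.48 ± 0.55 its ends. The 8 mast cell genes summed to 39.6 to 209.2 CPM in controls and 214.5 to 537.9 CPM in mutants, and their most abundant, Cma1, was without overlap (1.54 ± 0.66, adjusted p = 0.480). Of the mast cell genes 0 passed both limits by edgeR and by DESeq2, with 2 at an unadjusted p under 0.05, Cpa3 and Hdc, and 5 passed without E434 and E433. Their other ends were Fcer1a, at 1.83 ± 1.47 on no more than 0.13 CPM in any library, and Tpsab1 at 0.87 ± 0.81. The part of these cells in the change of the pigment genes was not tested.

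Schwann cell markers, which share Sox10 with melanocytes, were close in summed level across the libraries, but single genes of the list were not alike. The 13 genes summed to 462.7 to 573.8 CPM in controls and 468.4 to 537.7 CPM in mutants, with a median log2 fold change of 0.14. Pmp22 was the most abundant (-0.14 ± 0.13), and its 192.1 to 260.1 CPM weighed heavily in the sum. S100b was the lowest in change (-0.52 ± 0.82), at 8.70, 46.2 and 9.36 CPM in controls and 8.15, 28.8 and 7.87 CPM in mutants. The fitted change was above 0 for 8 of the 13 and below 0 for 5. Without overlap between groups, 3 were higher and 0 lower in mutants, against 6.81% and 8.21% of all genes. Retinal pigment epithelium, the other cell type that makes melanin in the eye, left little trace. Rpe65 was at 0 in all 6 libraries, and the 6 genes summed to 2.37 to 6.33 CPM in controls and 2.58 to 6.40 CPM in mutants. The highest of them was Rlbp1 (-0.58 ± 1.22, adjusted p = 0.893), and Lrat was at 2.87 ± 0.58 (adjusted p = 0.259). The 9 cartilage and bone genes summed to 31100 CPM in E434, against 10660 to 11570 CPM in the other controls, and to 13290 CPM in E433, against 7479 and 7875 CPM in the other mutants. Their fitted changes were -0.65 ± 0.21 for Col1a1, -0.41 ± 0.82 for Sox9 and -1.95 ± 1.66 for Matn3. Of the osteoclast genes, Mmp9 was at -1.81 ± 0.62 (adjusted p = 0.421) and Calcr at -0.52 ± 0.19 (adjusted p = 0.437). For that list 1 gene, Ctsk, passed both limits on the lower side (-1.26 ± 0.15, adjusted p = 0.0999), against 0.0301% of all genes. Ctsk, Tspan10, Lyst, Sostdc1, Cpa3 and Hdc are named after their values were seen.

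**Figure D5:**
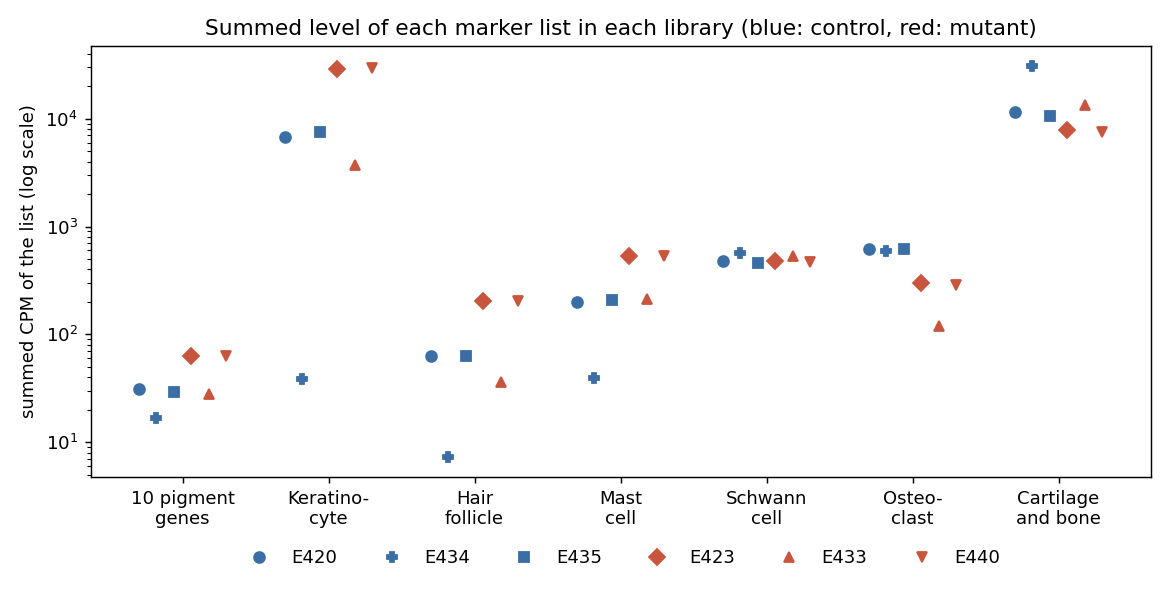
Summed CPM (y axis, log scale) of the 10 pigment genes and of 6 marker lists in each control (blue) and mutant (red) library. The keratinocyte, hair follicle and mast cell sums had E434 lowest and E423 and E440 highest, the Schwann cell sum was 462.7 to 573.8 CPM throughout, and the cartilage and bone sum was highest in E434. Of the 16.9 CPM of the pigment genes in E434, 7.10 were Mitf and 8.52 Sox10.

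The genes whose pattern over the 6 libraries was nearest to the pigment genes were sought among 23080 others. The likeness was the root mean square difference of centred log2 CPM from the mean of the 7 tested pigment genes other than Mitf and Sox10. The nearest was Gdpd3 (0.169), followed by Spo11 (0.214), Tmem54 (0.228), Vwa2 (0.238), Ano7 (0.255) and Mc1r (0.256). Gdpd3 was at 3.82, 0.243 and 3.69 CPM in controls and 11.1, 2.97 and 11.03 CPM in mutants. Among the pigment genes themselves Slc45a2 was nearest to the mean (0.157) and Dct farthest (1.35). Krt5 was at 1.95, at rank 17854 of the 23080 genes by nearness. The distance counts the size of the swings as well as their order over the libraries. Krt5 went from 0.640 CPM in E434 to 899.8 CPM in E423, where the centred mean profile went from -3.565 to 1.885 on the log2 scale. Its rank therefore does not show that its order over the libraries differed from that of the pigment genes. The log2 CPM held a prior count of 2, so the distances of genes with counts of 0 depend on it. The distances are a description over 6 libraries, 4 of which form the close pairs.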

How the data were processed

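RNA-Seq was performed by the authors on rib cages that had been cleaned of connective tissue, from 3 control and 3 mutant embryos at 16.5 dpc, with the NEBNext Ultra II Stranded mRNA kit. The authors deposited counts per gene from featureCounts 1.6.0 on HISAT2 2.1.0 alignments to GRCm38, unnormalized, with GENCODE exons, primary alignments, each end counted singly and strand not used. They also deposited RSEM 1.2.31 expected counts, which share fragments between genes, and TPM, made from STAR 2.7.6 alignments. A pair of tables of the authors' own DESeq2 1.26.0 comparisons, with fold changes, p-values and 12 further per-sample columns, was not used. Version numbers are from the submitters' processing notes. The pigment genes and lists were chosen with earlier results of these data known.

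The counts were tested with edgeR 4.0.16 (quasi-likelihood, TMM, genes whose 6 libraries together held 10 or more counts, Benjamini-Hochberg over 26596 genes), with limits of an adjusted p under 0.1 and a 1-unit log2 change in either direction taken from the study's methods, though not its tool. SE is the log2 fold change divided by the square root of F. Alternatives were DESeq2 1.42.0, other normalization, filters and limits, RSEM expected counts rounded to whole numbers, leave-one-out fits, the close libraries summed and, chosen after seeing the data, the fit without E434 and E433 and the Krt5 covariate. Counting intervals (95%, Clopper-Pearson, SciPy 1.17.1) used RSEM fragments rounded to whole numbers. Nothing in the labels says that the embryos differ in batch, and p-values measure the spread between these embryos. An exact permutation test of 3 against 3 cannot give a p under 0.1, so none was used. Named genes are the 10 pigment genes and Krt5; of the wider list the 4 highest and 4 lowest changes at a mean of at least 1 CPM and 9 fixed genes; of each marker list the most abundant gene and both extremes, of which 1 is not reported here; and the 6 nearest genes by pattern. The marker lists were for Schwann cells, keratinocytes, hair follicle, mast cells, osteoclasts, retinal pigment epithelium, and cartilage and bone. Ratios to Dct and the choice of promoter words were made after the values were seen.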

Additional observations from a re-analysis of the deposited data

How the results depend on the processing

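Of the 134 alternative values of the log2 fold changes of single genes, 119 kept their direction and side of the threshold on the adjusted p, 14 passed it where the main value did not, and 1 reversed, Tyr with Krt5 as a covariate at -0.18. The cause was not tested. Of the pigment genes, DESeq2 called 1, the fit without both E434 and E433 called 6, and leaving out single embryos gave 0 to 3, the 3 without mutant E433. Of the 41 genes of the wider set, these counts were 2, 6 and 0 to 4, the 4 also without E433. The 2 were 1 higher and 1 lower, the 6 were 5 higher and 1 lower, and the 4 were 3 higher and 1 lower. Among all genes, DESeq2 called 1.62% higher and 0.557% lower. The fit without both libraries called 1418 higher and 648 lower of 25045 genes. The fit without E433 called 734 higher and 353 lower of 25844 genes. Over all genes the main count of 17 became 477 with DESeq2, 35 with robust dispersions, 37 without the low-count filter, 10 with RSEM expected counts, 0 with the close libraries summed, 2066 without both E434 and E433, 46 with the Krt5 covariate, 0 at an adjusted p under 0.01, and 0 to 1087 when single embryos were left out, the 1087 without E433. Counts of Dct per Krt5 were close in TPM, at 18.2, 16.5, 24.6, 36.3 and 21.1 per 1000 in E420, E435, E423, E433 and E440. No paired analysis was possible because the labels give the embryos no number shared between groups. Tyrp1, Mlana, Slc45a2 and Oca2 had few counts, which limits what their ratios can show.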
